A study of Mus musculus with 9 samples.

Results

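The ZFP36 and BTG/TOB genes encode 2 families of proteins that shorten the life of messenger RNA or hold back cell division. They were followed in CD45.1+ LKS+ cells of mouse bone marrow across 3 groups of arrays. LKS+ cells lack lineage markers, carry Kit and Sca-1 and hold blood stem cells and early progenitors, and CD45.1 is a variant of a blood cell surface antigen that marks cells of one origin. The members were all probe sets whose annotation gave Zfp36, Zfp36l1, Zfp36l2, Btg1, Btg2, Btg3, Tob1 or Tob2 as the sole symbol. There were 18 such probe sets among 45037, and they covered 7 of the 8 genes. Btg3 had 0, because its one probe set also carries the symbol of a predicted gene.

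All mice were C57BL/6, labelled 8 weeks of age, and no allele or transgene is named. The groups were control mice, leukemic mice at day 7 and leukemic mice at day 14, with 3 Affymetrix Mouse Genome 430 2.0 arrays each. The series poses the question of what happens to the transcripts of normal LKS+ cells as acute myeloid leukemia advances. The driver of the leukemia, the origin of the CD45.1+ cells and pooling of animals are not given in the sources used here. Replicates are labelled biological, with no word on whether animals or sorts were separate, and p-values therefore measure only the spread between these samples. Controls carry no day, so leukemia and elapsed time cannot be told apart, and the comparisons of both days with control share the same 3 control arrays.

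ZFP36, also called tristetraprolin, ZFP36L1 and ZFP36L2 are zinc finger proteins that bind AU-rich elements of messenger RNAs. They recruit the CCR4-NOT deadenylase, which removes the poly(A) tail and starts decay. BTG1, BTG2, TOB1 and TOB2 share an amino-terminal domain that binds the CNOT7 and CNOT8 catalytic subunits of the same complex, and TOB proteins also bind the poly(A) binding protein. Several of these genes respond quickly to growth factor, cytokine or stress signals, and forced expression of BTG or TOB proteins slows division in many cell types.

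The promoter windows below are the 250 bases before the RefSeq transcript start in build GRCm38.p6, written 5′ to 3′ along the gene's strand. Windows of 6 member genes were found in the RefSeq table, those of Btg1, Btg2, Tob1, Tob2, Zfp36 and Zfp36l1. They are shown for Btg1, whose change was the largest, and for Zfp36l1, whose 2 probe sets were both called. Those of Btg2 and Zfp36 were picked because they hold a whole cAMP response element and a CArG box, both described next. The windows of Tob1 and Tob2 are not printed. Capitals mark the cAMP response element TGACGTCA or its short form TGACG (which the whole contains, and which reads CGTCA on the other strand), the FOXO motif TGTTTAC, the TATA motif TATAAA and the CArG box, the motif bound by serum response factor.

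Btg1 (chr10:96616751-96617000, plus strand): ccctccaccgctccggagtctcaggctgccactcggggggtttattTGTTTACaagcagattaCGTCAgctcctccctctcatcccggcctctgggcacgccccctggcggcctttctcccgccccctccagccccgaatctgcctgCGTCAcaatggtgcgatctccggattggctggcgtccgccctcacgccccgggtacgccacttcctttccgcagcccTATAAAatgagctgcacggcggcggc

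Btg2 (chr1:134079156-134079405, minus strand): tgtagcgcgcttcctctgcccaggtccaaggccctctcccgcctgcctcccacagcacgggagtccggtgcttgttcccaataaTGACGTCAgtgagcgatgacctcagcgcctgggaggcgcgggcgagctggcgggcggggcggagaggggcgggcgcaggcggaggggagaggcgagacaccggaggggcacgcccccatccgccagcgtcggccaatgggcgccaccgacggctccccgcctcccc

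Zfp36l1 (chr12:80113014-80113263, minus strand): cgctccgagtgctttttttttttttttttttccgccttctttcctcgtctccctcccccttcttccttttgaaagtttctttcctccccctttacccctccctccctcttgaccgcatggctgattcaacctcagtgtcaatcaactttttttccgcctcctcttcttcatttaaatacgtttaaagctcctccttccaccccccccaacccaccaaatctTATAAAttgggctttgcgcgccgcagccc

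Zfp36 (chr7:28379229-28379478, minus strand): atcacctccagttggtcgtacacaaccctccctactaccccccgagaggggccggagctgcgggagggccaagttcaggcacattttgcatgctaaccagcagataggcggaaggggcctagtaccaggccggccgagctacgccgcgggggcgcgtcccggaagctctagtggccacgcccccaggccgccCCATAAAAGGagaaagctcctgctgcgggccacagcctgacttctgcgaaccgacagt

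Positions are those of a motif's first base in the printed strand. The Btg1 window held a FOXO motif 204 bases before the start, short forms of the cAMP response element 187 and 103 bases before it and a TATA motif 26 bases before it. The Btg2 window held a whole cAMP response element 166 bases before the start. In the Zfp36l1 window the marked motif was a TATA motif 29 bases before the start, and in the Zfp36 window a CArG box 58 bases before it. Both strands were searched. Among 32851 windows of the same length, a whole cAMP response element occurred in 1.55%, the short form in 17.8%, the FOXO motif in 3.17%, the TATA motif in 12.4% and the CArG box in 1.47%. Of the 6 member windows these motifs were in 1, 3, 1, 3 and 1. The GC box GGGCGG was in 5 of 6 (32.7% of all windows), and the CCAAT box CCAAT in 4 of 6 (33.8%). The AP-1 motif TGACTCA (4.46% of all windows) and the EGR motif GCGTGGGCG (0.536%) were in 0 of the 6. These matches describe letters in a short window and say nothing on binding.

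The values are the authors' normalized intensities on a linear scale with arbitrary units, and changes are differences of mean log2 intensity. Intensities are compared only within a probe set, since probes differ in their response. The exception is the summed intensity of a list, which adds different probe sets and in which the bright ones weigh most. A probe set was tested if it exceeded the 40th percentile of its array in at least 3 arrays. Of the 18 member probe sets 17 passed, and each of these lay above that percentile in all 9 arrays. The second Tob1 probe set (1440844_at) did not pass: it read 17.3, 12.7 and 13.1 in control, 15.3, 13.6 and 13.6 at day 7 and 10.9, 13.6 and 13.6 at day 14.

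The day 14 arrays stood apart from the other 6 on the first principal component of the tested probe sets, which held 61% of the variance. Within groups, arrays correlated at 0.991 to 0.997 over probe sets. Array medians lay between 23.4 and 24.2, but the 75th percentile was 115 to 119 at day 14 and 127 to 130 elsewhere, and the scaling therefore bears on small changes at day 14. Of 11 LKS+ markers 10 had a probe set of their own, and all 10 were above the 40th percentile in every array. At day 14 Gata2 was higher than control (0.43, limma adjusted p = 0.00508), Cd48 (−0.85, limma adjusted p = 0.000217) and Procr (−0.43, limma adjusted p = 0.0171) were lower, and the other 7 were not called. Markers of other cells moved as well. Of 7 tested megakaryocyte and platelet markers, 5 were higher at day 14, and their summed intensity ran from 604.5 to 688 in control, 753.3 to 809.2 at day 7 and 1595 to 1875 at day 14. For monocytes and macrophages 4 of 6 were higher and 1 lower, with sums of 1671 to 2154, 1713 to 2117 and 2359 to 3014. Of 10 neutrophil and granule markers 3 were higher and 2 lower (sums 6268 to 7630, 7349 to 9102 and 8243 to 10400), and of 6 tested B cell markers 4 were higher and 1 lower (256.1 to 269.4, 304.2 to 371.2 and 339.3 to 437.5). Among T and NK cell markers 2 of 4 tested were higher (95.5 to 108.4, 108 to 115.3 and 124.2 to 134), with 3 of 7 measured below the 40th percentile in every array. Erythroid markers gave 0 calls among 3 tested, and their sums spread from 180.6 to 915.9 within control. The part of these cell types in the results that follow was not tested.

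At day 7 none of the 17 tested probe sets was called against control by limma at a Benjamini-Hochberg adjusted p below 0.05, and 0 had an unadjusted p below 0.05. The count was 0 under all 21 alternative settings too. Over all 27665 tested probe sets 3.39% were called, and 5908 had an unadjusted limma p below 0.05. Member changes ran from −0.32 to 0.23 with a median of 0.07, against a median of 0.00 over all probe sets. The groups did not overlap for 1 member, Zfp36l2 1437626_at, where 27.8% of all tested probe sets had groups that did not overlap. In bulk samples a change in the share of cells that hold a transcript and a change of RNA per cell cannot be told apart, here and in every comparison below.

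At day 14, 12 of the 17 probe sets were called higher than control, 0 were called lower and 5 were not called. The 12 belonged to Zfp36, Zfp36l1, Btg1, Btg2, Tob1 and Tob2, and Zfp36l2 had 0 called among 3. Over all tested probe sets 17.0% were called higher. The member median was 0.36 against −0.04 over all probe sets. For 14 members all 3 day 14 arrays lay above all 3 controls, which held for 21.0% of all tested probe sets. Against day 7, 9 of the 17 were called higher and 0 lower, where the background was 16.5%. The 9 were both Zfp36l1 probe sets, all 3 of Btg1, 1 each of Btg2 and Tob1, and 2 of Tob2. The median over all 17 was 0.29 against −0.02 over all probe sets, and 12 of 17 had day 14 arrays above all day 7 arrays, against 22.6% of all. Among the 12 calls against control, 6 held in all of the 19 or 20 alternative settings that gave the probe set a value of its own (both Zfp36l1 probe sets, 2 of Btg1, 1 of Tob1 and 1 of Tob2), and among the 9 calls against day 7, 7 did. With probe sets averaged by gene, 5 of 7 genes were called against control and 3 of 7 against day 7, and Tob1 was in neither. Over all 12654 genes of that fit, 2250 were called higher against control and 2059 against day 7.

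**Figure D1:**
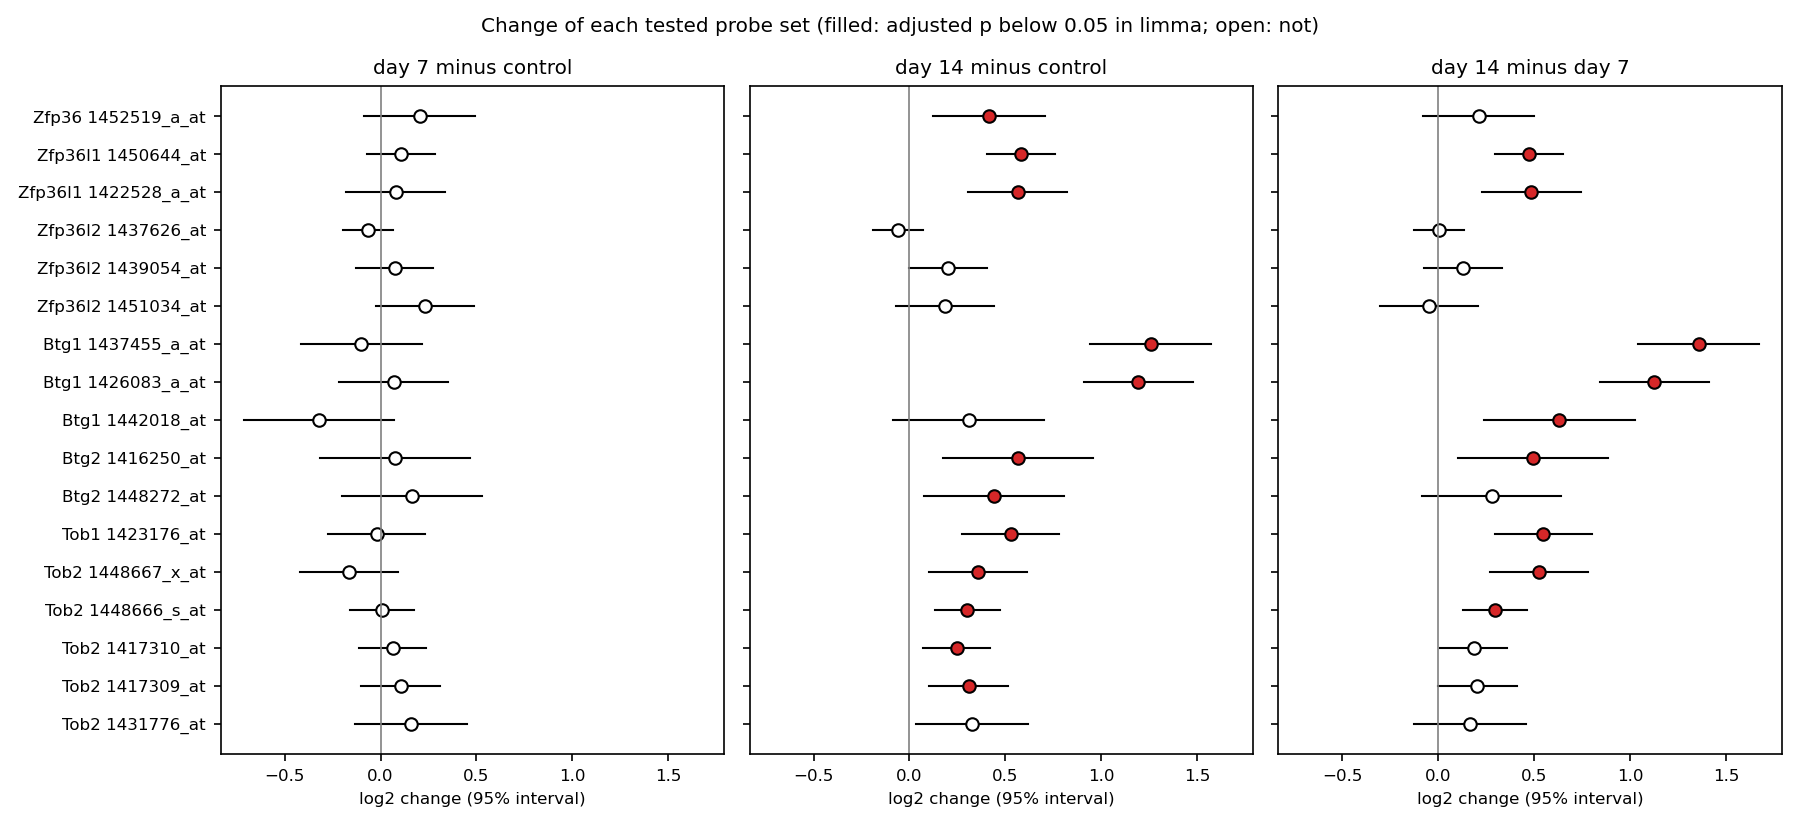
Log2 change (horizontal axis) of each of the 17 tested probe sets (rows) for day 7 minus control, day 14 minus control and day 14 minus day 7; lines are 95% intervals of the limma fit over 9 arrays, and filled points have an adjusted p below 0.05. No point is filled at day 7, 12 are filled at day 14 against control and 9 at day 14 against day 7, and 2 Btg1 probe sets lie farthest to the right.

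Zfp36 encodes tristetraprolin, the founding member of the zinc finger family and a known brake on Tnf messenger RNA. Its probe set (1452519_a_at) read 2599, 1935 and 2489 in control, 2438, 2678 and 2929 at day 7 and 3543, 3011 and 2773 at day 14. All day 14 arrays were above all controls, but day 14 and day 7 overlapped. The mean was 2341 ± 356 (SD, n = 3) in control, 2681 ± 246 at day 7 and 3109 ± 394 at day 14. At day 14 the level was 0.41 higher on the log2 scale (SE 0.13, limma adjusted p = 0.0272). This call was lost without control replicate 2 (limma adjusted p = 0.0877), without day 14 replicate 1 (0.0969) or 2 (0.0515), with array weights (0.0661) and with no filter on dim probe sets (0.0893). The differences of day 7 from control (0.20, 95% interval −0.09 to 0.49) and of day 14 from day 7 (0.21, −0.08 to 0.50) were not called.

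Zfp36l1, a paralog required with Zfp36l2 in early lymphocyte development, was higher at day 14 by both of its probe sets. Probe set 1450644_at read 827, 739 and 756 in control, 791, 804 and 906 at day 7 and 1215, 1145 and 1112 at day 14. Probe set 1422528_a_at read 289, 254 and 227, then 252, 247 and 316, then 359, 403 and 373. In both, every day 14 array lay above the other 6, and day 7 overlapped control. The changes from control were 0.58 (SE 0.08, limma adjusted p = 0.000399) and 0.56 (SE 0.12, adjusted p = 0.00361), and those from day 7 were 0.47 (limma adjusted p = 0.00109) and 0.49 (adjusted p = 0.00772).

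Zfp36l2, another AU-rich binding paralog with a role in blood stem and progenitor cells, was not called in any comparison with the main settings. Its bright probe set (1437626_at) read 7940, 7989 and 8163 in control, 7553, 7615 and 7857 at day 7 and 7877, 7567 and 7661 at day 14. Both leukemic groups lay below control without overlap, by −0.07 (95% interval −0.20 to 0.07) and −0.06 (−0.19 to 0.07), and the sign of the latter turned to 0.06 with the arrays set to the same 75th percentile. The highest intensity in the table was 13899. Probe set 1439054_at had means of 41.2 ± 3.15, 43.3 ± 1.95 and 47.4 ± 4.76 (SD, n = 3 each), and 1451034_at of 38.5 ± 1.56, 45.6 ± 7.19 and 43.9 ± 4.43, in control, at day 7 and at day 14. Their changes at day 14 were 0.20 (−0.00 to 0.40) and 0.18 (−0.07 to 0.44), neither of which was called. Both were called under some alternative settings. Probe set 1439054_at was called at 0.28 with quantile normalization (limma adjusted p = 0.0228), at 0.32 with the same 75th percentile (limma adjusted p = 0.0137), at 0.23 with array weights (limma adjusted p = 0.0388) and at 0.28 without day 14 replicate 1 (limma adjusted p = 0.033). With the same 75th percentile 1451034_at was called at 0.30 (limma adjusted p = 0.0489), and 1439054_at was also called against day 7 (0.26, limma adjusted p = 0.033).

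**Figure D2:**
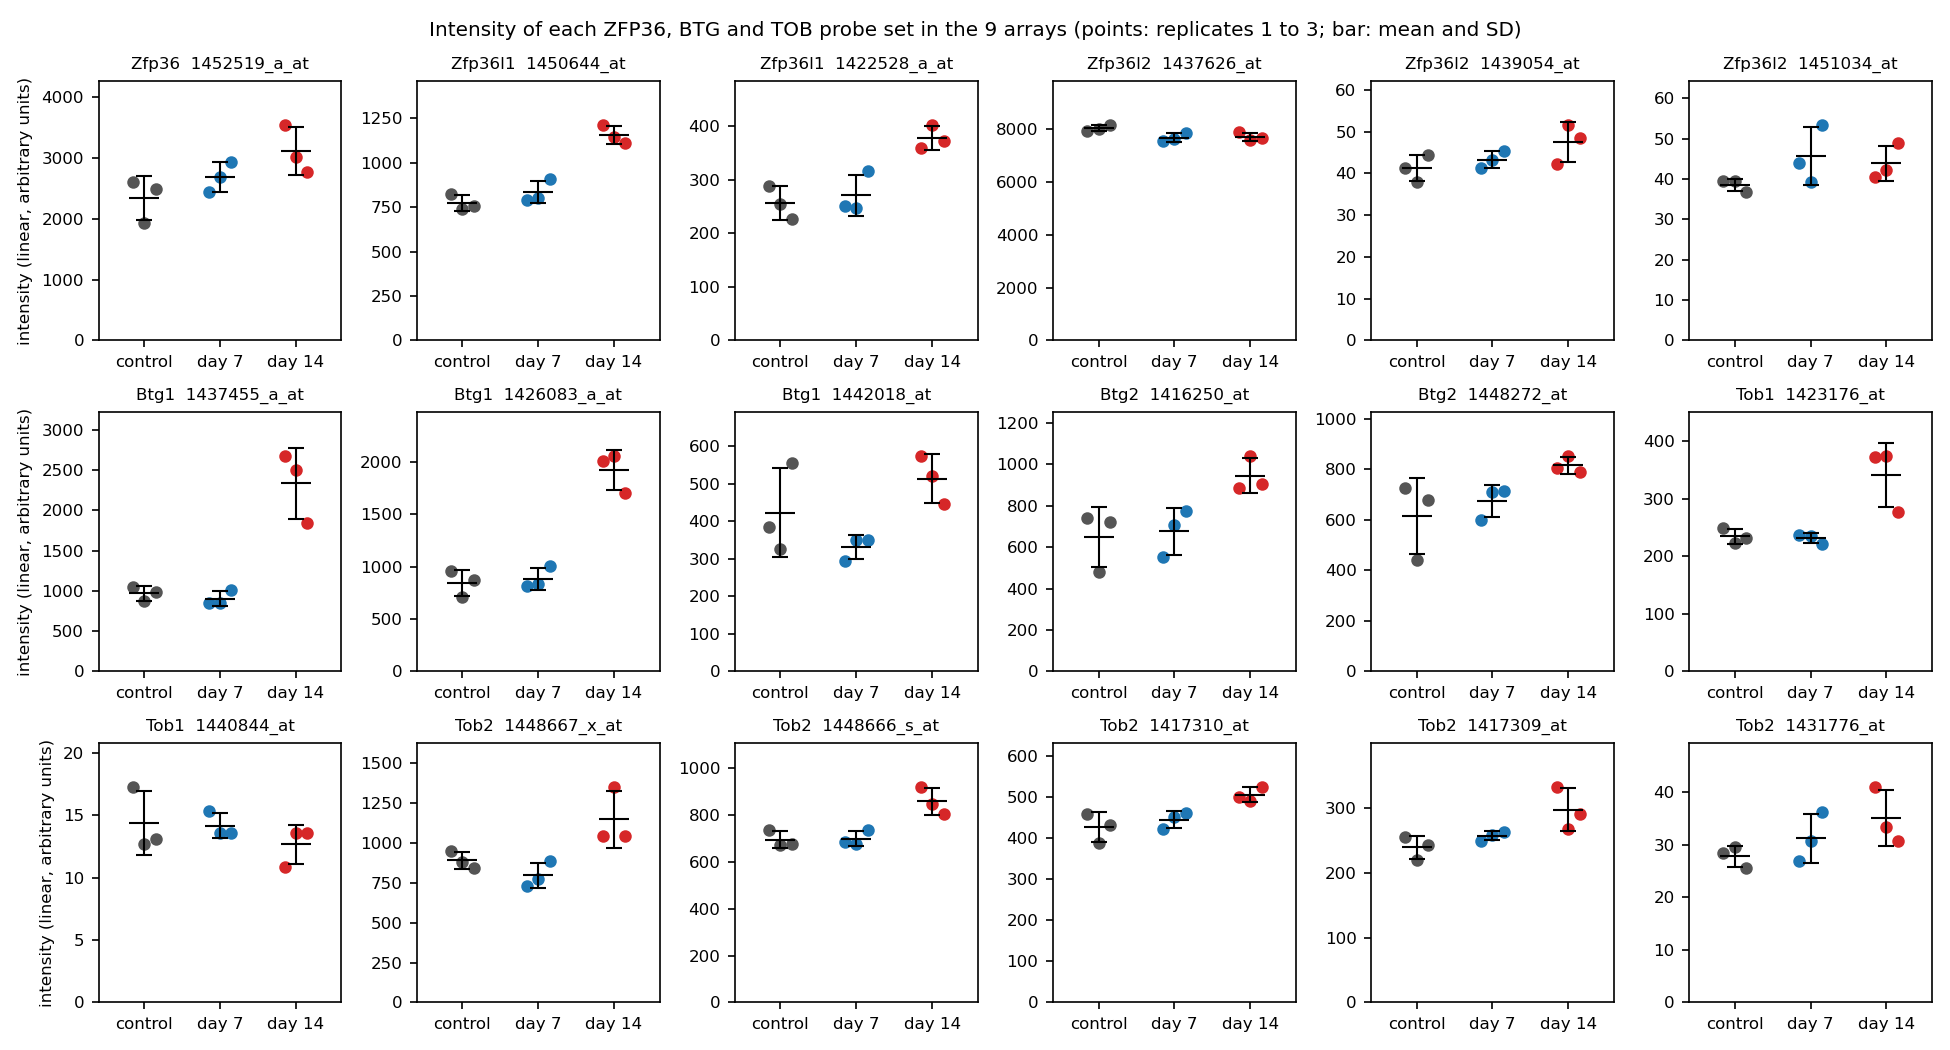
Intensity (linear scale, arbitrary units, from 0) in each array for the 18 member probe sets, 1 panel each, in control, day 7 and day 14; points are replicates and bars the mean and SD of 3. Both Zfp36l1 panels and the Btg1 panels 1437455_a_at and 1426083_a_at show 3 day 14 points above the other 6, while the 3 Zfp36l2 panels show no such step.

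Btg1, whose protein holds back division and has high levels in resting lymphocytes, had the largest change of the members. Probe set 1437455_a_at read 1050, 868 and 988 in control, 854, 844 and 1015 at day 7 and 2679, 2497 and 1841 at day 14. Probe set 1426083_a_at read 955, 708 and 867, then 815, 829 and 1001, then 2008, 2058 and 1702. The day 14 arrays of both were far above the other 6, which overlapped. The changes from control were 1.26 (SE 0.14, 2.39-fold, limma adjusted p = 0.00015) and 1.19 (SE 0.13, 2.29-fold, adjusted p = 0.000115). From day 7 they were 1.36 (limma adjusted p = 9.87e-05) and 1.13 (adjusted p = 0.000141).

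The third Btg1 probe set (1442018_at) was called against day 7 but not against control. It read 385, 327 and 555 in control, 294, 349 and 349 at day 7 and 574, 520 and 445 at day 14, so control replicate 3 reached into the day 14 range. Its change from control was 0.31 (95% interval −0.08 to 0.70, not called). Without control replicate 3 it was 0.52 and was called (limma adjusted p = 0.0114). The change from day 7 was 0.63 (SE 0.18, limma adjusted p = 0.0165). The latter call was lost without day 7 replicate 1 (limma adjusted p = 0.0635), without day 14 replicate 1 (0.0618) and with no filter (0.0746). The transcripts each Btg1 probe set reads are not given in the table.

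Btg2, also known as PC3 or Tis21, is an early response gene and a target of p53. Probe set 1416250_at read 743, 481 and 722 in control, 550, 707 and 774 at day 7 and 887, 1042 and 907 at day 14. Probe set 1448272_at read 724, 442 and 677, then 600, 710 and 714, then 804, 854 and 789. In both, control replicate 2 was the lowest array of the 9 and every day 14 array was above the other 6. The changes from control were 0.57 (SE 0.17, limma adjusted p = 0.0248) and 0.44 (SE 0.16, adjusted p = 0.04995). Only the former was called against day 7 (0.49, SE 0.17, limma adjusted p = 0.045), the latter changing by 0.28 (95% interval −0.09 to 0.64).

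These Btg2 calls depended on single arrays. That of 1416250_at at day 14 was lost without control replicate 2 (limma adjusted p = 0.0682) or day 14 replicate 2 (0.0789) and with no filter (0.0958). That of 1448272_at was lost in 11 of 19 alternatives, among them leaving out any day 7 or day 14 array or control replicate 2 (limma adjusted p = 0.0572 to 0.12), and it had only just passed. Without control replicate 2 the changes themselves were smaller, at 0.36 for 1416250_at and 0.22 for 1448272_at, while without a day 7 array the change of 1448272_at was 0.44 as before. The uncalled change of 1448272_at against day 7 was called without control replicate 2 (0.28, limma adjusted p = 0.0281) and with only the 2 groups (0.28, limma adjusted p = 0.0341). The call of 1416250_at against day 7 was lost in 7 of 20 alternatives, among them leaving out day 7 replicate 1 (0.162) or 2 (0.0736), or any day 14 array.

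Tob1 encodes a transducer of ERBB2 that links poly(A) binding protein to the deadenylase. Its probe set 1423176_at read 248, 223 and 232 in control, 238, 235 and 221 at day 7 and 372, 375 and 276 at day 14. Day 14 replicate 3 was the lowest of its group but still above all other arrays. The change was 0.53 from control (SE 0.11, limma adjusted p = 0.00456) and 0.55 from day 7 (SE 0.11, limma adjusted p = 0.0037). Averaging it with the dim 1440844_at gave 0.18 from control, which was not called (limma adjusted p = 0.121).

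Tob2, the close paralog of Tob1, had 5 probe sets, of which 4 were called higher at day 14 than in control. Probe set 1448666_s_at read 735, 673 and 677 in control, 683, 678 and 735 at day 7 and 921, 848 and 805 at day 14, with a change of 0.30 from control (SE 0.08, limma adjusted p = 0.0094). It rose by 0.29 from day 7 (SE 0.08, limma adjusted p = 0.0108). Probe set 1448667_x_at read 948, 879 and 844, then 728, 776 and 885, then 1046, 1353 and 1046, and was 0.36 higher than control (SE 0.11, limma adjusted p = 0.0289) and 0.52 higher than day 7 (SE 0.11, adjusted p = 0.00494). Day 14 replicate 2 stood above the other 2 arrays of its group there. The suffixes s and x mean that some probes of a set can also bind other transcripts.

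Probe set 1417310_at read 459, 388 and 432 in control, 423, 450 and 461 at day 7 and 501, 490 and 525 at day 14 (0.25 from control, SE 0.08, limma adjusted p = 0.0276). Probe set 1417309_at read 256, 220 and 242, then 249, 259 and 263, then 333, 268 and 291 (0.31, SE 0.09, limma adjusted p = 0.0211). Neither was called against day 7 with the main settings, with changes of 0.18 and 0.20. With quantile normalization both were, at 0.25 (limma adjusted p = 0.0355) and 0.30 (limma adjusted p = 0.0309), and with the same 75th percentile at 0.32 (limma adjusted p = 0.0113) and 0.34 (limma adjusted p = 0.0214). The former was also called with an offset of 32 in place of the floor (0.17, limma adjusted p = 0.0477). The latter was also called without day 14 replicate 2 (0.28, limma adjusted p = 0.0437). The dimmest, 1431776_at, had means of 27.8 ± 2.03, 31.2 ± 4.67 and 35.1 ± 5.35 (SD, n = 3 each) and a change of 0.33 (95% interval 0.03 to 0.62) at day 14 that was not called (limma adjusted p = 0.0675). It was called with the same 75th percentile (0.45, limma adjusted p = 0.0255) and without day 14 replicate 3 (0.42, limma adjusted p = 0.0421). The calls against control of 1448667_x_at, 1417310_at and 1417309_at were each lost without control replicate 2 (limma adjusted p = 0.0695, 0.0903 and 0.0726). Without day 14 replicate 2 the change of 1448667_x_at was 0.23. Single day 14 arrays (replicate 2 for the first, 1 and 3 for the second, 1 for the third) and control replicate 3 (for the first) also ended them, as did no filter (the first and the last), array weights (the second and the last) and a fit of only the 2 groups (the second).

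Control replicate 2 was the lowest of the 3 controls in 12 of 17 member probe sets, against 31.9% of all tested probe sets. It was also the lowest in 19 of 23 immediate-early genes, which respond to a stimulus within minutes. The summed intensity of those genes was 36290 in that array, 44550 and 44160 in the other controls, 40340 to 45280 at day 7 and 54030 to 60170 at day 14. Without control replicate 2, calls among the members at day 14 against control fell from 12 to 6. The 6 that remained were both Zfp36l1 probe sets, Btg1 1437455_a_at and 1426083_a_at, Tob1 1423176_at and Tob2 1448666_s_at. Over all tested probe sets, those called higher fell from 4692 to 3770 in the same setting. Tob2 1448667_x_at, where control replicate 2 was not the lowest control, lost its call with a change of 0.35 against 0.36.

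**Figure D3:**
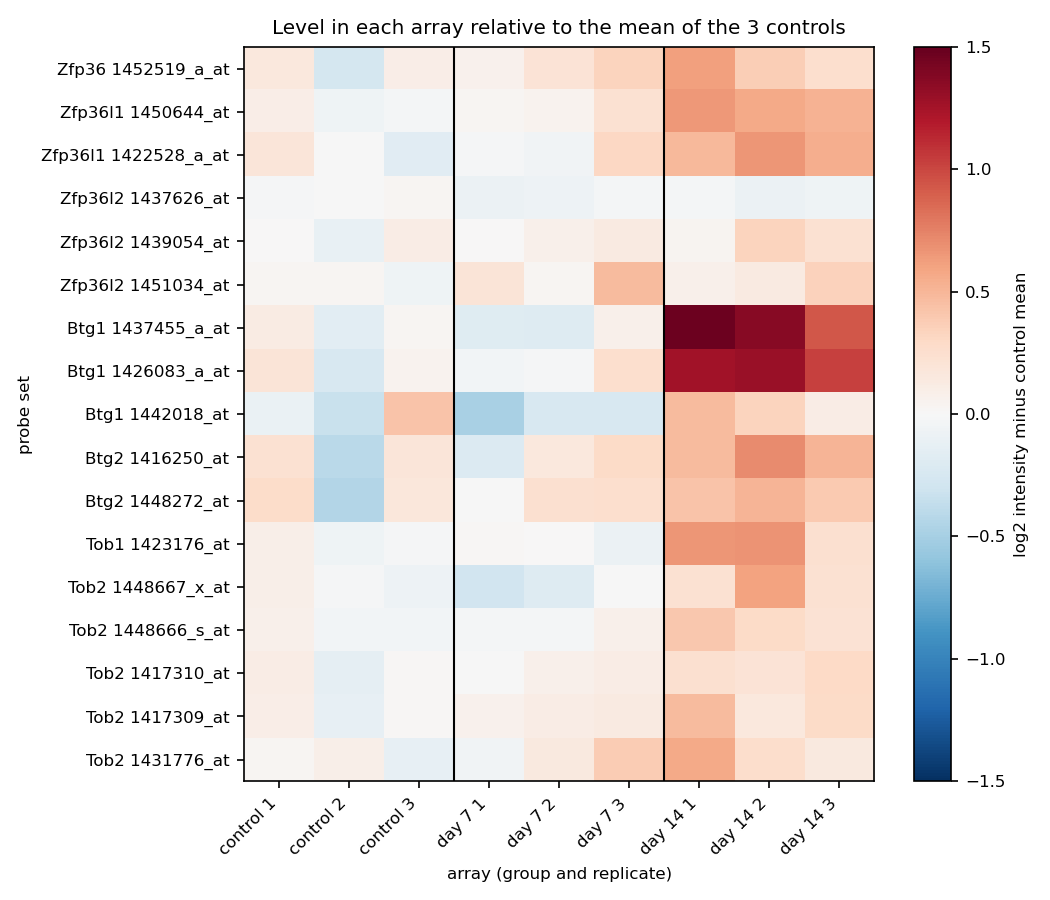
Log2 intensity minus the mean of the 3 controls (colour, from −1.5 to 1.5) for the 17 tested probe sets (rows) in each of the 9 arrays (columns, replicates 1 to 3 of each group). The day 14 columns are red, by varying depth, in every row but that of Zfp36l2 1437626_at. Control replicate 2 is blue in several rows, among them those of Zfp36, both Btg2 probe sets and Btg1 1426083_a_at and 1442018_at.

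For each member gene the brightest probe set was correlated over the 9 arrays with 11979 other genes, as a description in which the step at day 14 is shared by many genes. The highest Pearson correlations were those of Zfp36 with Capn3 (r = 0.963) and Ppp1r15a (0.961), of Zfp36l1 with Sqstm1 (0.994) and Gadd45b (0.984), and of Zfp36l2 with Nbeal2 (0.937) and Rhoq (0.927). The Zfp36l2 probe set had no called step at day 14. For every member the values given were picked as the highest of 11979, so their height alone shows no link. Btg1 was most like Insig1 (0.994) and Kat6b (0.991), and Btg2 most like Emp1 (0.975) and Htr1a (0.949). Tob1 was most like Klhdc1 (0.979) and Zscan18 (0.977), and Tob2 most like Cers2 (0.984) and Slc35g3 (0.98). Among the members, the brightest probe sets of Zfp36l1 (1450644_at) and Btg1 (1437455_a_at) correlated at 0.958, and those of Tob2 (1448667_x_at) and Btg1 at 0.871. Taking the dimmer Btg1 1426083_a_at made the former 0.982, and taking the dimmer Tob2 1448666_s_at made the latter 0.969. Other probe sets gave lower values. The former was 0.61 with Btg1 1442018_at. The latter was 0.793 with Tob2 1417310_at, 0.791 with 1417309_at and 0.659 with 1431776_at. Zfp36l2 1437626_at correlated at −0.367 with Zfp36l1 1450644_at.

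The genes that work with these proteins were read with 1 probe set a gene. At day 14, 16.6% of all tested genes were called higher and 32.1% lower than control (median change −0.06), and 15.7% and 31.9% against day 7. With quantile normalization the calls over all probe sets at day 14 split into 5752 higher and 6148 lower, and with the same 75th percentile into 8125 and 5075, where the deposited scale gave 4692 and 7598. Against day 7 the same splits were 5584 and 5797, 8551 and 4785, and 4574 and 7099. The same 75th percentile moved the median of all probe sets by 0.12 at day 14 against control and by 0.13 against day 7. At day 7, 2.71% of genes were called in either direction.

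Genes of the CCR4-NOT deadenylase had calls in both directions. Of 10 subunit genes 2 rose and 2 fell at day 14 (median −0.09). Cnot7, a catalytic subunit that BTG and TOB proteins bind, rose by 0.58 (SE 0.07, limma adjusted p = 0.000239), and Cnot6l, another catalytic subunit, rose by 0.20 (SE 0.07, adjusted p = 0.0481). Cnot9 fell by 0.48 (SE 0.08, limma adjusted p = 0.00169) and Cnot4 fell by 0.31 (SE 0.08, adjusted p = 0.0131). The Cnot6l call was lost with quantile normalization (0.08) and without any 1 of 7 arrays, and another of its probe sets moved by −0.07. The Cnot4 call was lost with the same 75th percentile (0.0703). Against day 7, 2 rose and 3 fell.

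Of 14 genes of other deadenylation, decapping and 5′ decay, 2 rose and 5 fell at day 14 (median −0.06). With quantile normalization the counts were 5 and 2 and with the same 75th percentile 6 and 2, so the list had no settled direction, and leaving out 1 array left 2 to 4 fallen. Ddx6, a helicase that joins decapping to CCR4-NOT, rose by 0.67 (SE 0.10, limma adjusted p = 0.000611). The decapping enzyme gene Dcp2 fell by 0.74 (SE 0.08, limma adjusted p = 0.000159) and the deadenylase gene Parn fell by 0.52 (SE 0.06, adjusted p = 0.000242). Pan3 rose by 0.34 and Edc3 fell by 0.27, the latter lost under both of those scalings. Another Dcp2 probe set changed by −0.09 and another of Pan3 by −0.14. Against day 7, 3 rose and 4 fell.

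The RNA exosome, which degrades transcripts from their 3′ end, had 8 of 10 genes lower and 0 higher at day 14 (median −0.46), with 7 or 8 lower under the other scalings. Exosc7 fell by 1.02 (SE 0.07, limma adjusted p = 1.2e-05), Exosc8 fell by 0.79 (SE 0.11, adjusted p = 0.000395) and Exosc1 fell by 0.66 (SE 0.09, adjusted p = 0.000511). A dimmer Exosc8 probe set went the other way, at 0.42. Against day 7, 9 of 10 fell.

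Other proteins that bind AU-rich or stem-loop elements gave 2 higher and 1 lower of 8 (median 0.08). Zc3h12a, which encodes the RNase Regnase-1, rose by 1.43 (SE 0.11, limma adjusted p = 2.28e-05), and Rc3h1, which encodes Roquin-1, rose by 0.37 (SE 0.07, adjusted p = 0.002). Elavl1, whose product HuR stabilises AU-rich transcripts, fell by 0.24 (SE 0.07, limma adjusted p = 0.0139), which was lost with the same 75th percentile (0.148). Other Elavl1 probe sets changed by −0.47 to 0.26. The p38-MK2 kinases phosphorylate ZFP36 proteins, which 14-3-3 proteins then bind. Of 14 genes of that axis 5 rose and 3 fell at day 14 (median 0.11). Map2k3 rose by 0.71 (SE 0.09, limma adjusted p = 0.000233), Mapkapk2, which encodes MK2, rose by 0.48 (SE 0.09, adjusted p = 0.00179), and the 14-3-3 gene Ywhaz rose by 0.44 (SE 0.07, adjusted p = 0.000634). The 14-3-3 genes Ywhab, Ywhae and Ywhaq fell by 0.28, 0.27 and 0.21, and none of these calls held with the same 75th percentile (limma adjusted p = 0.0863, 0.111 and 0.339). Other probe sets of Ywhae changed by −0.30 to 0.19 and those of Ywhaq by −0.29 to 0.16. Against day 7, 3 of the 8 binding proteins rose and 1 fell, and 5 of the 14 axis genes rose and 3 fell.

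Of 30 AU-rich transcripts known as ZFP36 family targets, 24 were tested, and 12 rose and 5 fell at day 14 (median 0.36). The chemokine gene Cxcl2 rose by 2.29 (SE 0.27, limma adjusted p = 0.000184), the angiogenic factor gene Vegfa rose by 2.20 (SE 0.17, adjusted p = 2.79e-05), and the urokinase receptor gene Plaur rose by 1.64 (SE 0.19, adjusted p = 0.000173). The cell cycle genes Ccne2, Ccnd1 and E2f1 fell by 1.57 (SE 0.23), 1.41 (SE 0.12) and 0.96 (SE 0.15). At day 7, 2 rose, Cxcl2 (1.54, limma adjusted p = 0.0202) and Tnf (0.61, adjusted p = 0.0407), of which 0 were called with no filter. Leaving out any day 7 array ended the Cxcl2 call, as did leaving out control replicate 3, and leaving out day 7 replicate 2 or 3, day 14 replicate 3 or any control ended that of Tnf. Tnf was lower than control at day 14 (−0.42, SE 0.13, limma adjusted p = 0.0272). Against day 7, 10 rose and 6 fell.

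Of 9 tested BTG and TOB partners and inducers 1 rose and 3 fell at day 14 (median −0.01). Foxo1, a forkhead factor that drives quiescence genes, rose by 0.58 (SE 0.10, limma adjusted p = 0.00135). Skp2, a ubiquitin ligase subunit that promotes entry into S phase, fell by 1.62 (SE 0.16, adjusted p = 6.95e-05). Smad5 fell by 0.53 (SE 0.08, limma adjusted p = 0.000801) and the methyltransferase gene Prmt1, whose product binds BTG1 and BTG2, fell by 0.34 (SE 0.08, adjusted p = 0.00639). The other 2 Smad5 probe sets tested changed by 0.12 and 0.20. With the same 75th percentile 4 of the 9 were called higher. Against day 7, 1 rose and 3 fell.

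Immediate-early genes had 19 of 23 higher and 1 lower at day 14 (median 0.67), with 18 or 19 higher under the other scalings. Egr3 rose by 4.01 (SE 0.29, limma adjusted p = 1.89e-05), Nr4a3 rose by 3.46 (SE 0.14, adjusted p = 1.71e-06) and Maff rose by 2.47 (SE 0.12, adjusted p = 2.99e-06), while Myc fell by 0.78 (SE 0.10, adjusted p = 0.000306). Second probe sets of Egr3 and Nr4a3 changed by 0.27 and 0.37. At day 7 these first 3 were the called ones of this list, at 1.55 (limma adjusted p = 0.0246), 1.65 (adjusted p = 0.00263) and 0.96 (adjusted p = 0.00848). The Egr3 call was lost without any 1 of the day 7 arrays (limma adjusted p = 0.0691 to 0.0911), without control replicate 2 (0.0504) or 3 (0.0722), with only the 2 groups (0.0522) and with no filter (0.135). With no filter the Maff call was lost too (0.0699). No gene of the 6 lists not named for day 7 was called there. Against day 7, 16 rose and 1 fell at day 14. Fos, Jun, Myc and Ier3 stand in this list and among the AU-rich targets.

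**Figure D4:**
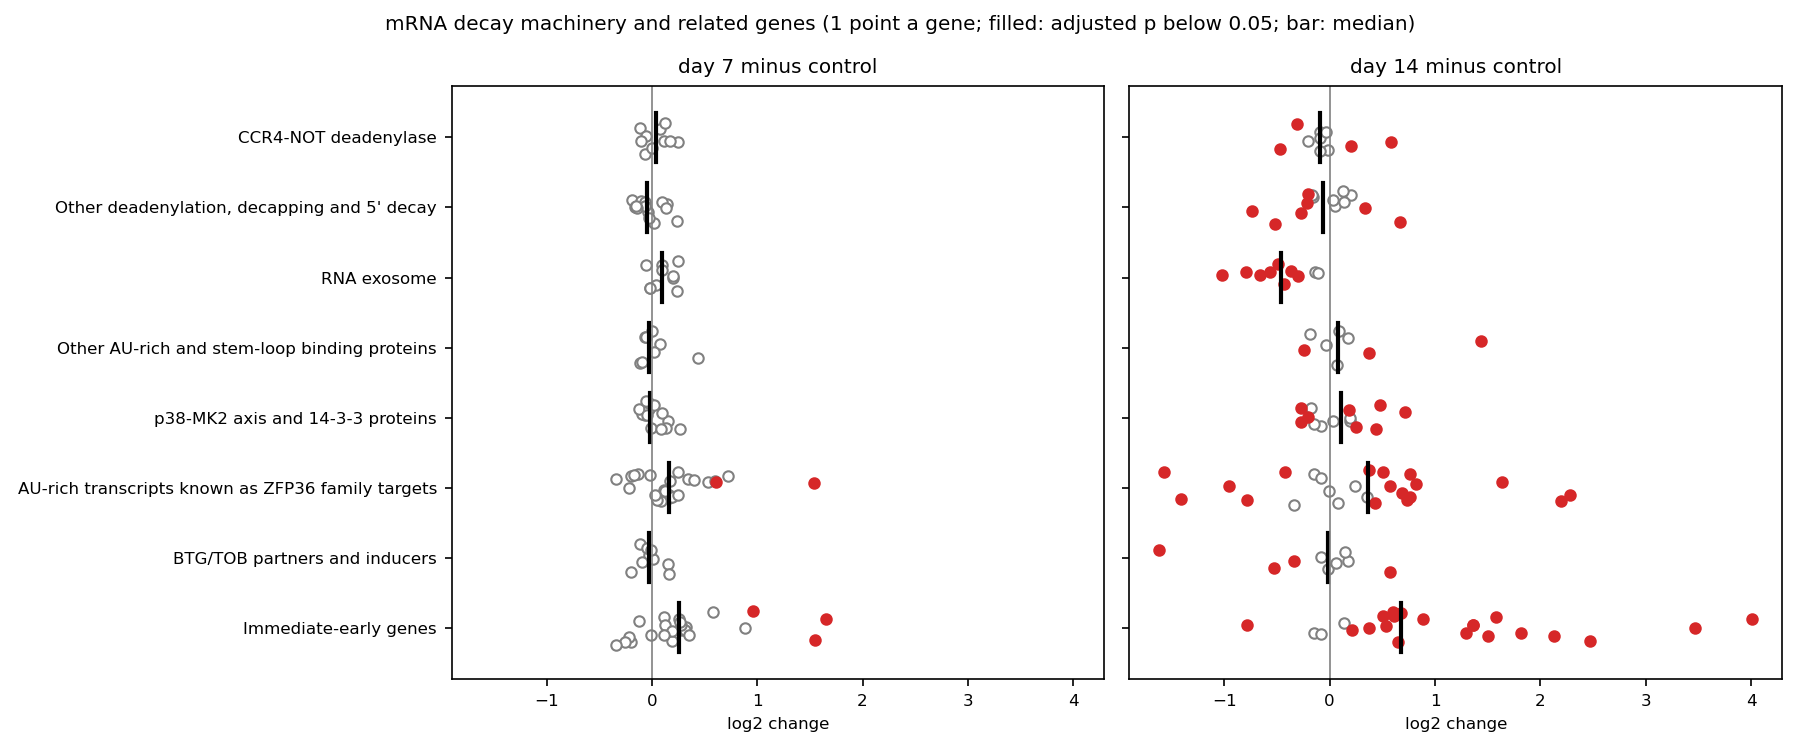
Log2 change (horizontal axis) of the genes of 8 lists (rows) at day 7 and at day 14 against control; 1 point a gene, filled where the limma adjusted p is below 0.05, with a bar at each list's median. At day 14 the exosome points lie left of 0 (median −0.46) and most immediate-early points right of it (median 0.67), while the CCR4-NOT points lie on both sides of 0 (2 higher and 2 lower called, median −0.09).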

How the data were processed

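RNA of 9 samples (3 groups of 3) was measured, 1 array each. Intensities are the authors' deposited values per probe set, in arbitrary linear units. The authors amplified RNA in 2 cycles and normalized with Affymetrix Microarray Analysis Software 5.0, per the labels' design text. Among the deposited probe sets, 51.64% show an identical intensity, to the last digit, in 2 arrays or more. Whether a summary other than the named one was used is unknown, and the scaling was varied. Arrays carry no read depth, and their number limits the precision.

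Values under 5.81, the table's 20th percentile, were raised to it, and log2 taken. The 27665 probe sets above the 40th percentile of their array (14.1 to 15.2) in 3 or more arrays were fitted in 1 model over 9 arrays with limma 3.58.1 in R 4.3.3, with two-sided moderated tests and Benjamini-Hochberg adjustment over all of them. Calls need an adjusted p below 0.05. The steps were tested on simulated data. Symbols come from the platform annotation (34945 probe sets with 1 symbol, 932 with several, 9160 with none), and names were checked against RefSeq. Members and lists were chosen with earlier results of these data known.

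Named genes were all members, up to 3 called genes per list and direction in a comparison, by the size of the change, and the 2 genes best correlated with each member. The day 14 against day 7 list genes are given as counts. A list gene is read from its probe set of highest mean log2 intensity. Alternatives were other scalings, floors, filters and variance models, 1 probe set or the mean of probe sets a gene, the replicate number as a block, the 2 groups compared alone, and leaving out each array. List counts under these were added after seeing the data.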

Additional observations from a re-analysis of the deposited data

Results flagged for a closer look

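For 9 probe sets the change at day 14 differed from that at day 7, by the limma test of day 14 against day 7 (adjusted p below 0.05, the same difference in other words, since both changes are taken from the same controls). On the log2 scale the difference was 0.474 and 0.486 for the Zfp36l1 probe sets 1450644_at and 1422528_a_at. It was 1.36, 1.13 and 0.631 for the Btg1 probe sets 1437455_a_at, 1426083_a_at and 1442018_at. It was 0.493 for Btg2 1416250_at, 0.547 for Tob1 1423176_at, and 0.523 and 0.295 for Tob2 1448667_x_at and 1448666_s_at. In each, all 3 day 14 arrays lay above all 3 day 7 arrays.

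A probe set outside the comparisons also changed. Probe set 1449007_at is annotated to Gm7334 and Btg3 together, so its signal cannot be given to either. It read 854, 849 and 746 in control (mean 816 ± 61.3, SD, n = 3), 1092, 1092 and 1128 at day 7 (1104 ± 20.5) and 1906, 1724 and 1800 at day 14 (1810 ± 91.7). The 3 groups did not overlap. It was 1.15 higher at day 14 than in control (limma adjusted p = 1.24e-05) and 0.44 higher at day 7 (limma adjusted p = 0.0194).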

How the results depend on the processing

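Of 984 member values under an alternative setting, 898 kept their direction and their side of the threshold, 42 lost a call, 17 gained one and 27, all without a call, turned sign. Of 1560 values of the named list genes, 115 lost a call and 0 turned. These genes were named because they were called and had large changes, so no call could be gained and a turned sign was unlikely. The counts for members and for list genes are therefore not alike.

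Of 938 probe sets called at day 7, the count was 1429 with an offset of 32 in place of the floor, 32 with no filter, 423 with 1 probe set a gene, 484 with probe sets averaged by gene, 365 with only the 2 groups, 1659 with a trended robust prior, 3012 with array weights, and 138 to 1036 leaving out 1 array. At day 14 against control 12290 became 6626 and 6266, and against day 7 11673 became 6455 and 6094, with 1 probe set a gene and with averaging, where fewer features are tested. Members called at day 14 (12 of 17) were 13 with quantile normalization, 15 with the same 75th percentile and 7 with no filter (18 tested). Leaving out 1 array gave 6 to 12. Over all 27665 probe sets, 4692 were called higher with the main settings, and 5752 and 8125 with those 2 scalings. Leaving out 1 array gave 3686 to 4457 there, and no filter gave 4419 of 45037. Against day 7, members called (9 of 17) were 11 and 12 with those 2 scalings. Over all probe sets 4574 higher became 5584 and 8551. By gene, with 7 tested, 6 (1 probe set a gene) and 5 (averaged) were called against control, and 5 and 3 against day 7. Over all genes, 2314 of 12652 and 2250 of 12654 were called higher against control, and 2204 and 2059 against day 7.

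The replicate numbers shared by the groups did not pair the arrays: same-numbered deviations correlated at −0.128 to 0.109 over 9 pairs, and 1 of 9 arrays correlated best with its own number. With the replicate number as a block, calls were 458, 11572 and 11036 over all probe sets, and 0, 11 and 8 among members, for day 7, day 14 and day 14 against day 7.

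Signs that turned, all of uncalled changes, were these. At day 7 array weights gave −0.0745 for Zfp36l1 1422528_a_at, −0.0615 for Btg1 1426083_a_at, −0.00741 for Btg2 1416250_at and −0.0538 for Tob2 1448666_s_at, which was −0.00317 with the same 75th percentile. Leaving out 1 array gave ranges of −0.0352 to 0.167, −0.0524 to 0.163, −0.128 to 0.217 and −0.0294 to 0.0486 for these. The ranges were −0.0579 to 0.299 for Btg2 1448272_at, −0.0544 to 0.0226 for Tob1 1423176_at and −0.00351 to 0.118 for Tob2 1417310_at. At day 14 Zfp36l2 1437626_at was 0.0605 against control with the same 75th percentile, and −0.0113 to 0.022 against day 7 leaving out 1 array. Zfp36l2 1451034_at against day 7 was 0.000977 with quantile normalization, 0.083 with the same 75th percentile, 0.0416 with array weights and −0.149 to 0.0719 leaving out 1 array. The cause was not tested for any of these.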
